A study of Homo sapiens with 8 samples.

Results

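The 10 genes described here are the double-stranded RNA sensors RIGI, IFIH1, DHX58, TLR3 and EIF2AK2, the adaptor MAVS, the RNA-editing enzyme ADAR, and the RNA interference genes DICER1, DROSHA and AGO2. They were chosen by name, but with earlier results of these data known. All 10 of them were found among the 17309 genes of the count table after the transcripts of each gene were summed. The question was whether the colorectal cancer cell lines SW480 and DLD-1 differ in how they could sense or process a hairpin RNA.

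Double-stranded RNA is a common sign of viral infection. RIGI and IFIH1 bind it in the cytosol and pass the signal to MAVS on mitochondria, TLR3 detects it in endosomes, and both routes lead to transcription of interferons, which in turn raise the transcription of many of the sensors themselves. EIF2AK2 (PKR) halts translation when it binds double-stranded RNA, and ADAR edits adenosines in such RNA to inosines. A short hairpin RNA enters the RNA interference pathway instead, in which DICER1 cuts it to a short duplex and AGO2 holds 1 strand of it and cleaves the matching messenger RNA, while DROSHA makes the earlier cut in primary microRNAs.

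RNA sequencing was made from 8 libraries in 4 groups of 2 biological replicates: SW480 with shControl virus, SW480 with shNAT10 virus, DLD-1 with shControl virus and DLD-1 with shNAT10 virus. NAT10 is the enzyme that places N4-acetylcytidine on RNA. The labels give both lines as established human colorectal cancer cells of genotype WT, and every group had received a hairpin virus. Uninfected cells were not analysed here, so a difference between the lines that existed before infection and a difference in their response to a virus cannot be told apart.

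Both NAT10 hairpins that the study designed are shown because they are the kind of duplex these 10 genes could meet, and the labels do not say which of them was sequenced. Each has arms of 19 bases and a loop of 6 bases, and the capitals in the antisense arm mark its seed, bases 2 to 8.
shNAT10-1 sense arm: ggccaaagctgtcttgaaa
shNAT10-1 antisense arm: tTTCAAGAcagctttggcc
shNAT10-2 sense arm: cagtgacgacctagatgaa
shNAT10-2 antisense arm: tTCATCTAggtcgtcactg
Both sense arms were found in the coding sequence of NAT10 on the plus strand of chromosome 11 (GRCh38). The target of shNAT10-1 spans the junction of exons 8 and 9 (the single base at chr11:34118503 and chr11:34122459-34122476), and that of shNAT10-2 spans the junction of exons 26 and 27 (chr11:34141805-34141817 and chr11:34142275-34142280), in a transcript of 29 exons.

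Total estimated counts were 15147805 to 17271336 per library. Levels are given in CPM, which scale the counts of each library to the same size. In SW480 NAT10 itself stood at 122 ± 0.106 CPM (mean ± SD, n = 2) with shControl and 25.7 ± 3.06 with shNAT10, and it was at 121 ± 0.404 and 56.7 ± 3.25 in the corresponding DLD-1 groups, so that 21.0% and 47.0% of the control level remained. Of 10 colorectal epithelial markers, all were detected in both lines, with a summed level of 3187 to 3944 CPM in SW480 and 7587 to 8165 CPM in DLD-1, and 7 of the 9 tested were called lower in SW480 shControl. Their part in the line differences was not tested. The 3 immune markers in the table summed to at most 3.11 CPM in any library and the 8 stromal and endothelial markers to at most 3.99 CPM.

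All 10 genes were lower or higher in SW480 than in DLD-1 under shControl by edgeR's quasi-likelihood test with Benjamini-Hochberg adjustment over 13619 tested genes at an adjusted p of 0.05. The 9 lower genes were RIGI, IFIH1, TLR3, EIF2AK2, DHX58, ADAR, DROSHA, AGO2 and MAVS, and DICER1 alone was higher. The lines differed widely, since 35.6% of all tested genes were called lower and 38.1% higher in SW480, so passing the test is by itself common here. By size, 6 of the 10 differed more: RIGI, IFIH1, TLR3, EIF2AK2, DHX58 and ADAR were lower by at least 1 on the log2 scale, against 11.6% of all tested genes. The median log2 fold change of the 10 genes was -1.86, and that of all tested genes was 0.01. In these bulk libraries, fewer cells that express a gene and less RNA of it per cell cannot be told apart.

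**Figure D1:**
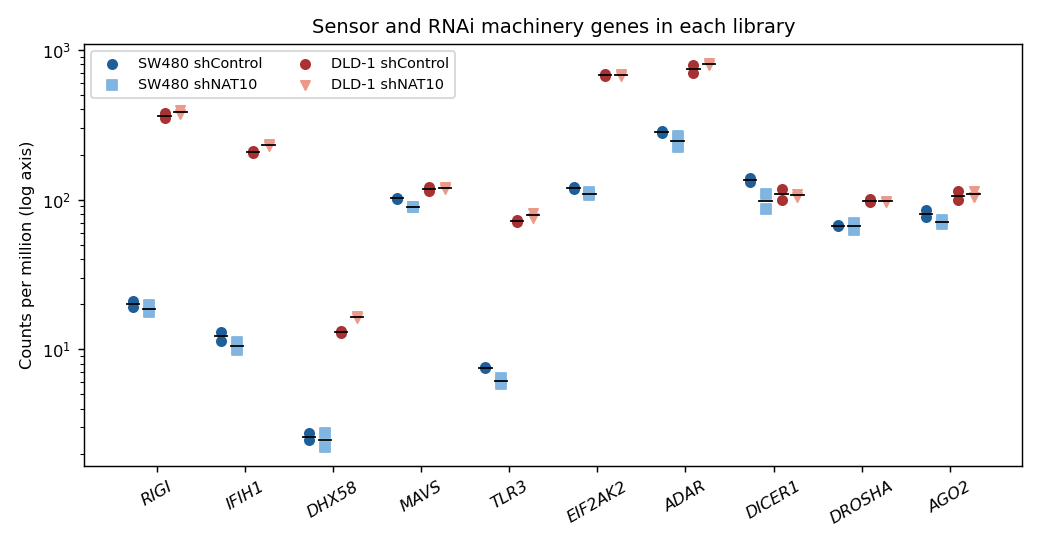
Level of each of the 10 genes in each of the 8 libraries, in CPM on a log axis, with each point 1 library and each black line the mean of a group of 2. RIGI, IFIH1, DHX58, TLR3, EIF2AK2 and ADAR sit lower in every SW480 library than in every DLD-1 library by wide margins. MAVS, DROSHA and AGO2 also sit lower in every SW480 library, by smaller margins, while DICER1 overlaps between the lines.

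RIGI, the helicase that recognises short double-stranded RNA with a 5′ triphosphate, was at 21.0 and 19.1 CPM in the SW480 shControl libraries, 17.6 and 19.7 in SW480 shNAT10, 378 and 349 in DLD-1 shControl and 397 and 374 in DLD-1 shNAT10. The lines did not overlap and the replicates of each group lay close together. How many of all tested genes separate in this way between the lines was not counted, here or for the genes below. With 35.6% of them called lower in SW480 under shControl, such separation may be common. The shControl difference was a log2 fold change of -4.18 ± 0.0857 (SE; adjusted p = 1.27e-14, edgeR), or 18.1-fold more in DLD-1, and 1.84% of all tested genes had a lower value.

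IFIH1 (MDA5), which binds long double-stranded RNA, stood at 11.4 and 12.9 CPM in SW480 with shControl and 9.94 and 11.1 with shNAT10, and at 205 and 210 in DLD-1 with shControl and 228 and 236 with shNAT10. Its pattern was like that of RIGI, with every SW480 library far below every DLD-1 library. The log2 fold change under shControl was -4.09 ± 0.0865 (SE; adjusted p = 1.67e-14, edgeR), or 17.0-fold more in DLD-1.

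DHX58 (LGP2), a relative of RIGI and IFIH1 that modulates their signalling, was the gene of lowest level, at 2.75 and 2.46 CPM in SW480 with shControl and 2.76 and 2.22 with shNAT10, and at 13.2 and 12.9 in DLD-1 with shControl and 16.8 and 16.2 with shNAT10. The SW480 values rest on 38 to 47 estimated counts per library. DLD-1 was 4.99-fold higher under shControl, at a log2 fold change of -2.32 ± 0.149 (SE; adjusted p = 3.11e-09, edgeR). With only curated (NM) transcripts counted, this call was lost, at -1.81 and an adjusted p of 0.117.

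TLR3, the endosomal receptor, was at 7.56 and 7.49 CPM in SW480 with shControl and 5.82 and 6.43 with shNAT10, and at 73.0 and 71.0 in DLD-1 with shControl and 75.3 and 81.3 with shNAT10. The lowest DLD-1 library was far above the highest SW480 library. The log2 fold change under shControl was -3.26 ± 0.0924 (SE; adjusted p = 3.27e-13, edgeR), or 9.55-fold more in DLD-1.

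MAVS, the adaptor that RIGI and IFIH1 share, did not follow its sensors in size. It was at 101 and 103 CPM in SW480 with shControl and 88.9 and 88.6 with shNAT10, and at 114 and 122 in DLD-1 with shControl and 122 and 118 with shNAT10. Its log2 fold change under shControl was -0.20 ± 0.0669 (SE; adjusted p = 0.0127, edgeR), or 1.15-fold more in DLD-1. By limma on log2(FPKM + 1) it was not called, at -0.18 (adjusted p = 0.059). The call was lost when replicate 1 (adjusted p = 0.0705) or replicate 2 (0.0529) of SW480 shControl or DLD-1 shControl replicate 2 (0.124) was left out of the edgeR fit.

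EIF2AK2 was at 118 and 121 CPM in SW480 with shControl and 107 and 112 with shNAT10, and at 667 and 688 in DLD-1 with shControl and 671 and 686 with shNAT10. DLD-1 was 5.66-fold higher under shControl, at a log2 fold change of -2.50 ± 0.0651 (SE; adjusted p = 1.33e-13, edgeR). The SW480 and DLD-1 values were again separate in every library.

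ADAR was at 279 and 287 CPM in SW480 with shControl and 226 and 267 with shNAT10, and at 700 and 789 in DLD-1 with shControl and 790 and 815 with shNAT10. Its line difference was smaller than those of the sensors, at a log2 fold change of -1.40 ± 0.0832 (SE; adjusted p = 1.30e-09, edgeR) or 2.63-fold more in DLD-1. The gene makes a long protein, p150, from an interferon-inducible promoter and a shorter one, p110, from others. The estimated counts of the 13 ADAR transcripts allowed 1 transcript of the long form to be looked at separately.

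NM_001111.5, the transcript of p150, had 1001 and 1181 estimated counts in SW480 shControl, 1055 and 1105 in SW480 shNAT10, 6772 and 8809 in DLD-1 shControl and 7648 and 7795 in DLD-1 shNAT10. That was 21.1% to 27.5% of the ADAR counts in SW480 and 56.8% to 66.1% in DLD-1. The other transcripts together had 2780 to 3751 counts in SW480 and 4515 to 5763 in DLD-1. Reads of 50 bases were divided among overlapping transcripts by the authors' estimation program, and NM_001025107.3, a p110 transcript, ranged from 332 to 1968 counts among the DLD-1 libraries, so no test was made on single transcripts.

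**Figure D2:**
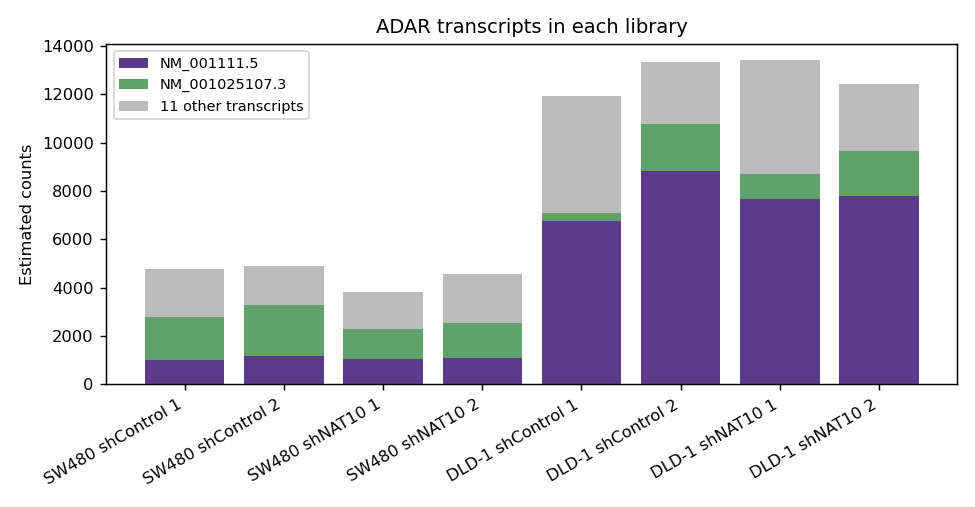
Estimated counts of ADAR in each library, stacked by transcript. NM_001111.5, a p150 transcript, is at the bottom, NM_001025107.3, a p110 transcript, in the middle and the 11 other transcripts on top. The bottom part is 1001 to 1181 counts in the SW480 libraries and 6772 to 8809 in the DLD-1 libraries.

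The RNA interference genes lay much closer between the lines. DICER1 was at 132 and 139 CPM in SW480 with shControl and 86.9 and 108 with shNAT10, and at 99.5 and 118 in DLD-1 with shControl and 104 and 110 with shNAT10. Under shControl it was higher in SW480 by a log2 fold change of 0.32 ± 0.10 (SE; adjusted p = 0.0105, edgeR). This call was lost without SW480 shControl replicate 2 (adjusted p = 0.0725), without DLD-1 shControl replicate 1 (0.157) and with NM transcripts only (0.103).

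DROSHA was at 67.1 and 66.6 CPM in SW480 with shControl and 62.7 and 69.8 with shNAT10, and at 96.0 and 101 in DLD-1 with shControl and 98.5 and 96.2 with shNAT10. DLD-1 was 1.47-fold higher under shControl, at a log2 fold change of -0.56 ± 0.0743 (SE; adjusted p = 8.82e-06, edgeR). Of its counts, 98.3% stood on predicted (XM) transcripts, and the few left on NM transcripts gave no call, at a log2 fold change of 0.83 and an adjusted p of 0.656.

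AGO2, the only member of its family in humans that is known for efficient slicing, was at 76.0 and 84.7 CPM in SW480 with shControl and 68.3 and 72.9 with shNAT10, and at 98.8 and 114 in DLD-1 with shControl and 104 and 114 with shNAT10. DLD-1 was 1.32-fold higher under shControl, at a log2 fold change of -0.40 ± 0.0874 (SE; adjusted p = 7.72e-04, edgeR). With NM transcripts only it gave no call, at -0.07 and an adjusted p of 0.809.

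The comparison between the lines under shNAT10 gave the same direction for 9 of the 10 genes. RIGI, IFIH1, TLR3, DHX58, EIF2AK2, ADAR, DROSHA, AGO2 and MAVS were lower in SW480, against 36.3% of all tested genes called lower and 38.2% called higher, and the same 6 genes were lower by at least 1 on the log2 scale, against 12.1% of all tested genes. The log2 fold changes were -4.37 ± 0.0866 for RIGI, -4.46 ± 0.0884 for IFIH1, -3.67 ± 0.0953 for TLR3 and -1.71 ± 0.0840 for ADAR (SE). DICER1 was not called, at -0.13 ± 0.101 (SE; 95% interval -0.34 to 0.09, adjusted p = 0.273, edgeR), and its libraries overlapped. Without SW480 shNAT10 replicate 2 it was called lower, at -0.29 and an adjusted p of 0.0106. With NM transcripts only, the calls of DROSHA (-0.74, adjusted p = 0.727) and AGO2 (-0.46, adjusted p = 0.112) were lost, which left 7 of the 10.

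**Figure D3:**
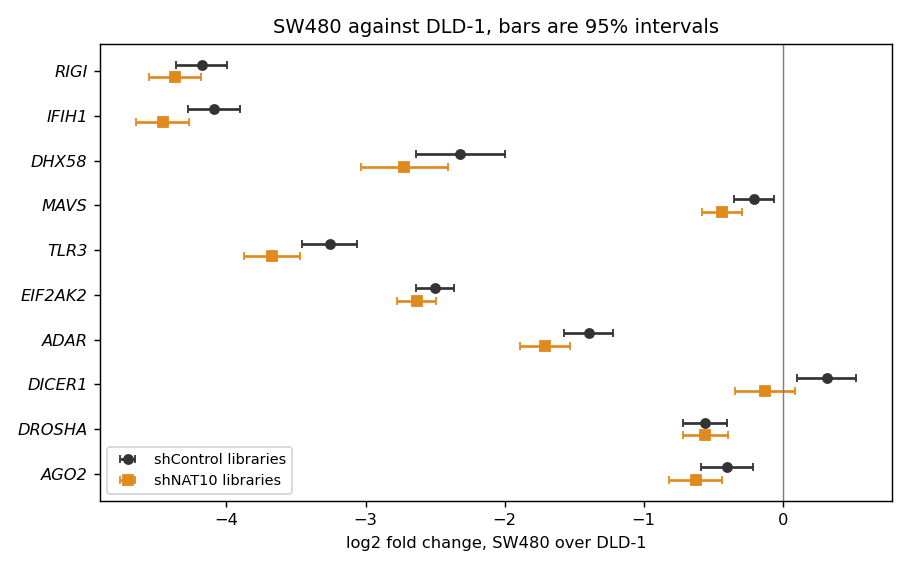
Difference between the lines for each gene as the log2 fold change of SW480 over DLD-1, in the shControl and the shNAT10 libraries, with bars for the 95% interval of edgeR's fit. RIGI and IFIH1 lie near -4 in both, MAVS, DROSHA and AGO2 lie between 0 and -1, and DICER1 is above 0 with shControl only, as its shNAT10 interval spans 0.

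Levels were compared between genes with the authors' FPKM, which divide by transcript length. In DLD-1 shControl the order was ADAR (118 ± 10.5 FPKM, SD, n = 2), EIF2AK2 (95.6 ± 6.89), RIGI (83.3 ± 4.24), IFIH1 (62.5 ± 1.48), DROSHA (23.8 ± 0.544), TLR3 (12.5 ± 0.163), DICER1 (10.6 ± 1.26), MAVS (10.3 ± 0.573), AGO2 (7.46 ± 0.785) and DHX58 (5.64 ± 0.0778). DICER1 and MAVS overlapped in that order and the other neighbours did not. In SW480 shControl the order was ADAR (45.5 ± 1.33), EIF2AK2 (17.3 ± 1.12), DROSHA (16.0 ± 0.283), DICER1 (13.4 ± 0.615), MAVS (8.96 ± 0.156), AGO2 (5.65 ± 0.502), RIGI (4.63 ± 0.283), IFIH1 (3.71 ± 0.354), TLR3 (1.32 in both libraries) and DHX58 (1.14 ± 0.0778), and no neighbours overlapped. RIGI and IFIH1 thus stood above DROSHA and DICER1 in DLD-1 and below them in SW480. The SW480 shNAT10 replicate 2 file ended early, so ADAR, DICER1 and DROSHA have no FPKM there.

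The fixed lists of genes around these 10 are read against the 35.6% of all tested genes called lower and 38.1% called higher in SW480 shControl. Of 32 interferon-stimulated genes tested, 31 were lower and 1, BST2, was higher in SW480 shControl, with a median log2 fold change of -3.93 (the same with the 2 genes at 0 in SW480 set to their bound). HERC5, an ISG15 ligase, averaged 1.85 CPM in SW480 and 146 CPM in DLD-1, and XAF1, IFI44L and CXCL10 were at or near 0 in SW480.
Of 13 genes of the OAS and eIF2alpha kinase arm, 7 were lower and 5 higher, with a median of -0.31. The lower ones of this arm were led by OAS1 (log2 fold change -6.27), OAS3 (-4.70), OAS2 (-4.61) and OASL (-4.43), members of the oligoadenylate synthetase family, which binds double-stranded RNA.
Of 25 sensor signalling genes, 12 were lower and 7 higher, with a median of -0.18. IRF7, which drives interferon transcription, was at 16.6 CPM in SW480 and 271 in DLD-1 (log2 fold change -4.03), and ZC3HAV1 (-1.96), UNC93B1, which carries TLR3 to endosomes (-1.39), and RNF135, a ligase for RIGI (-1.36), followed. TBK1 (-0.28) was called lower, IKBKG (0.95) was called higher, and IRF3 (0.20) and TRAF3 (-0.01) were not called.

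Of 20 other RNA interference and microRNA genes tested, 6 were lower, 4 were higher and 10 were not called, with a median of -0.02. MOV10, a helicase of the silencing complex that is also induced by interferon, was the lowest at -1.33, followed by AGO1 at -0.52. SND1 (0.78) and PIWIL4 (0.54) were the highest, XPO5, the exporter of hairpin RNAs, was at 0.22 and called higher, and DGCR8, TARBP2 and AGO3 were not called. Of 14 other double-stranded RNA binding proteins, 7 were lower and 6 higher, with a median of -0.03. SIDT1, a transporter of double-stranded RNA, was at 0.0293 CPM in SW480 and 6.13 in DLD-1, ZBP1 was at 0.0293 and 1.21, and ADARB1, the second active editing enzyme, was higher in SW480 at a log2 fold change of 1.78, as was SIDT2 at 0.93.

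The interferon genes themselves were counted. IFNB1 had 0 counts in all 4 SW480 libraries, 141 and 145 in DLD-1 shControl and 188 and 164 in DLD-1 shNAT10. With a floor of 3 counts per library, DLD-1 was at least 47.7-fold higher under shControl and at least 62.7-fold higher under shNAT10. IFNL1 had 0, 3, 0 and 0 counts in the SW480 libraries and 618 to 947 in DLD-1. IFNL2 and IFNL3 had 0 counts in SW480 and 224 to 683 in DLD-1, and as near-identical copies they share reads. The receptor genes of type I interferon were not lower in SW480, with log2 fold changes of 0.42 for IFNAR1 and 0.69 for IFNAR2, both called higher. IFNLR1, a receptor of the lambda interferons, was called lower at -0.77 and its partner IL10RB higher at 0.78, and of the interferon gamma receptors IFNGR1 was called lower at -1.36 and IFNGR2 higher at 1.12. Of the 12 interferon and receptor genes tested, 6 were lower and 4 higher, with a median of -0.44. What sets the interferon transcripts in DLD-1 was not tested.

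**Figure D4:**
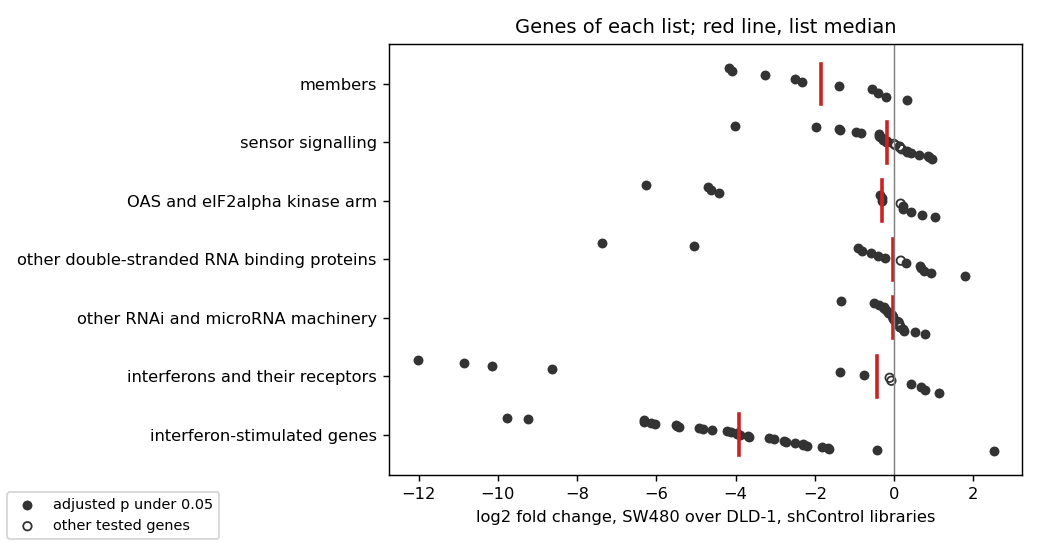
Each point is 1 tested gene of a list, placed by its log2 fold change of SW480 over DLD-1 in the shControl libraries, filled where the adjusted p was under 0.05, with a red line at the list's median. The interferon-stimulated genes centre at -3.93 and the RNA interference genes at -0.02, and values beyond about -8 belong to genes at or near 0 counts in SW480 and depend on the fit's prior count.

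A motif of interferon-induced promoters, the interferon-stimulated response element, was searched as GAAA, any 2 bases and GAAA again, on both strands in RefSeq windows (GRCh38.p14) from 250 bases before to 50 after each gene start. It was present in 3.57% of 35116 windows, and in at least 1 window of 4.38% of 27305 genes. Of the 10 genes, 8 had a window, and 3 of those held the motif, namely IFIH1, TLR3 and EIF2AK2. No match was found for RIGI, MAVS, ADAR, DICER1 or DROSHA, which says only that these letters are not in these windows. Among the interferon-stimulated genes, 18 of 27 with a window held it. The windows are shown on the gene's strand with the match in capitals (where the match is on the opposite strand, its reverse complement is capitalised), and only the first of the overlapping upstream pair of IFIH1 is given.
IFIH1, chr2:162318686-162318715, minus strand, 21 bases before the start: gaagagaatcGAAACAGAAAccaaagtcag
IFIH1, chr2:162318824-162318853, minus strand, 159 bases before the start: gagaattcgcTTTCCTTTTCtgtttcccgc
EIF2AK2, chr2:37156967-37156996, minus strand, 6 bases before the start: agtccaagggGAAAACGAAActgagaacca
TLR3, chr4:186069142-186069171, plus strand, 4 bases before the start: caagctttacTTTCACTTTCgagagtgccg

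By the smallest root mean square difference of centred log2 CPM over the 8 libraries, the gene most like RIGI was HERC6 (0.0671), that most like IFIH1 was PARP9 (0.0514), and that most like DHX58 was APOL1 (0.0833). TLR3 was nearest to TRIM10 (0.0973) and EIF2AK2 to TRIM14 (0.0443). MAVS was nearest to AACS (0.0299), DICER1 to IL6ST (0.0251), DROSHA to COPG2 (0.0270) and AGO2 to ZNF510 (0.0373). The gene the measure gave for ADAR lies on a sex chromosome and is left out.

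Few of the 10 genes were called with depletion of NAT10. In SW480 only DICER1 was called, against 0.903% of all tested genes called lower. It stood at 135 ± 5.56 CPM with shControl and 97.7 ± 15.2 with shNAT10 (SD, n = 2), a log2 fold change of -0.47 ± 0.10 (SE; 95% interval -0.69 to -0.26, adjusted p = 0.0331, edgeR). Its shNAT10 replicates, 86.9 and 108 CPM, differed more from each other than its shControl replicates did. The call was lost when SW480 shNAT10 replicate 1 (-0.32, adjusted p = 0.183), shControl replicate 1 (-0.51, 0.133) or shControl replicate 2 (-0.43, 0.340) of the same line was left out, and also when only the SW480 libraries were fitted (-0.46, 0.125), no filter on low counts was used (-0.47, 0.128) or NM transcripts alone were counted (-0.48, 0.196).

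The other 9 genes were not called in SW480, and all had a log2 fold change below 0, from -0.01 for DROSHA to -0.30 for TLR3. EIF2AK2, of whose counts 40.8% stood on predicted transcripts, was at -0.13 and was called lower with NM transcripts only, at -0.70 (adjusted p = 0.0242, edgeR). The libraries of 7 of the 10 genes did not overlap between shNAT10 and shControl, all lower, against 26.2% of all tested genes lower without overlap. An unadjusted p under 0.05 by edgeR was found for 4 of the 10 genes, MAVS, TLR3, ADAR and DICER1, and for 2622 of the 13619 tested genes. The median log2 fold change was -0.19 for the 10 genes and -0.0095 for all tested genes. ADAR was at -0.20 ± 0.0829 (SE; adjusted p = 0.207, edgeR), and without SW480 shNAT10 replicate 2 it was called at -0.33 (adjusted p = 0.0163). By the study's own limits of a fold change over 1.2 or under 0.83 with an unadjusted p under 0.05, TLR3 and DICER1 passed, against 9.08% of all tested genes. In SW480 the knockdown difference also moved with transcript length, with a median log2 fold change of 0.11 in the shortest of 5 equal bins of genes and -0.12 in the longest, and the longest GENCODE transcripts of DICER1 (10331 bases), AGO2 (14581), MAVS (11714), EIF2AK2 (10042), ADAR (7112) and TLR3 (6015) are all in the longest bin. With a length correction, DICER1 was at -0.34 (adjusted p = 0.00813, edgeR), TLR3 was at -0.23, ADAR at -0.11, MAVS at -0.06, AGO2 at -0.03 and EIF2AK2 at 0.0045, and none of these 5 was called.

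In DLD-1 none of the 10 genes was called by edgeR, and 0.0147% of all tested genes were called in either direction, while 812 genes had an unadjusted p under 0.05, IFIH1 and DHX58 among them. DESeq2 also called none of the 10. DHX58 was at 13.0 ± 0.260 CPM with shControl and 16.5 ± 0.449 with shNAT10, a log2 fold change of 0.34 ± 0.111 (SE; 95% interval 0.10 to 0.58, adjusted p = 0.634). IFIH1 was at 0.16 (95% interval 0.01 to 0.31, adjusted p = 0.824). The libraries of IFIH1, DHX58, TLR3 and ADAR did not overlap, all 4 higher, against 17.7% of all tested genes higher without overlap. By the study's own limits DHX58 alone passed, against 2.68% of all tested genes. The 8 genes with a value above 0 and the 2 below it, DICER1 and DROSHA, ranged from -0.03 to 0.34.

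**Figure D5:**
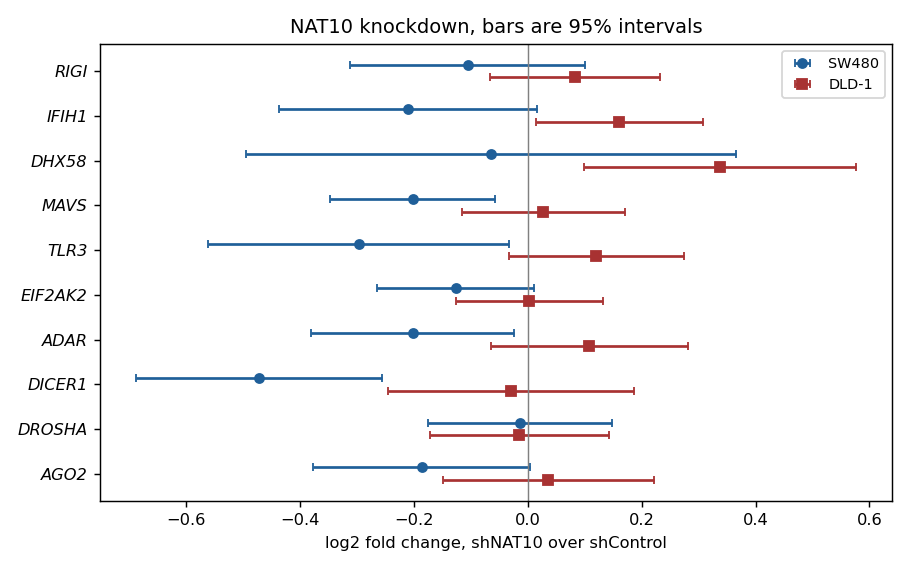
Change with NAT10 depletion for each gene as the log2 fold change of shNAT10 over shControl, in SW480 and DLD-1, with bars for the 95% interval of edgeR's fit. In SW480 all 10 values are below 0 and DICER1 is lowest at -0.47, and in DLD-1 the values lie between -0.03 and 0.34.

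The knockdown effects of the 2 lines were then compared directly, as an interaction in the same edgeR fit. None of the 10 genes was called, against 0.00734% of all tested genes. The 1 gene called was NAT10 itself, whose depletion was deeper in SW480 (-1.16 ± 0.118, SE, adjusted p = 0.00150, edgeR). There were 1278 genes with an unadjusted p under 0.05, and DESeq2 called none of the 10. The values for SW480 minus DLD-1 ran from -0.44 for DICER1 (95% interval -0.75 to -0.14, adjusted p = 0.472) to 0.00 for DROSHA (-0.22 to 0.23), and 5 of the 10 genes had an unadjusted p under 0.05. Without SW480 shNAT10 replicate 2, ADAR (-0.44, adjusted p = 0.0415) and DICER1 (-0.61, adjusted p = 0.0294) were called. In the fixed lists around these genes, MX2, an interferon-stimulated gene, was the only one called with NAT10 depletion in either line. It was at 7.47 CPM with shControl and 4.52 with shNAT10 in SW480, a log2 fold change of -0.72 (adjusted p = 0.0187, edgeR).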

How the data were processed

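The authors deposited a table of estimated counts per RefSeq transcript for all 8 libraries and 1 file of FPKM values per library. Polyadenylated RNA was read as single ends of 50 bases, and the submitters' processing notes name HISAT2 2.0.4, Bowtie2 2.2.5 and RSEM 1.2.12 with hg38. Counts of the 78953 transcripts were summed per gene and rounded. Genes were kept by filterByExpr (minimum count 10), scaled by TMM and tested in 1 model of 4 groups by edgeR 4.0.16 (quasi-likelihood, Benjamini-Hochberg over all tested genes). This step was tried on simulated data, where false calls mostly ran somewhat above their nominal share. The simulated data held far fewer changed genes than were called between the lines, so they do not check the error rate in that setting. FPKM of a gene's transcripts were summed and used for levels and for limma 3.58.1. Alternatives were upper-quartile scaling, DESeq2 1.42.0, other filters, a replicate block, fewer libraries, NM transcripts, limma on log2(FPKM + 1) and, added after the data were seen, a length correction.

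Named were all 10 genes, NAT10, up to 4 called genes with the largest change per list and the most alike gene. Other list genes were named after their values were seen. The genes and lists were chosen with earlier results of these data known. Replicates are labelled biological, with no more said of their origin. One gene of a list is not reported here and was left out of that list's counts.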

Additional observations from a re-analysis of the deposited data

Results flagged for a closer look

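IFIH1, TLR3 and ADAR were flagged because every shNAT10 library was below every shControl library in SW480 and above every shControl library in DLD-1. Of all tested genes, 26.2% were lower without overlap in SW480 and 17.7% higher without overlap in DLD-1. The share with both was not counted. For ADAR the gap in DLD-1 was small, from 788.7 CPM in shControl replicate 2 to 789.8 CPM in shNAT10 replicate 1. With the length correction the knockdown log2 fold changes in SW480 were -0.22 for IFIH1, -0.23 for TLR3 and -0.11 for ADAR. Without it they were -0.21, -0.30 and -0.20 in the same order. The difference of the knockdown effects, SW480 minus DLD-1, was a log2 value of -0.37 for IFIH1, -0.42 for TLR3 and -0.31 for ADAR. edgeR's test of the difference gave adjusted p of 0.481 for IFIH1, 0.486 for TLR3 and 0.489 for ADAR, so none of the 3 passed. For ADAR it was called without SW480 shNAT10 replicate 2 (-0.44, adjusted p = 0.0415).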

How the results depend on the processing

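Among the genes that fell by at least 1 on the log2 scale between the lines, RIGI, IFIH1, TLR3, EIF2AK2 and ADAR kept their call and direction under every alternative that gave them a value, and DHX58 under all but NM transcripts only. The number of the 10 genes called between the lines under shControl was 10, and it was 6 with NM transcripts only, 6 by limma on log2(FPKM + 1), which could use 6305 genes and 7 of the 10, 6 with a log2 fold change of at least 1, and 8 to 9 when 1 library was left out. The number of all genes called there was 10046, against 4447 by limma, 3974 with a log2 fold change of at least 1 and 9050 to 9142 without 1 library. Under shNAT10 the corresponding numbers were 9 of the 10 genes (7 with NM transcripts only, 9 to 10 without 1 library) and 10149 genes, against 4565 by limma, 4048 with a log2 fold change of at least 1 and 9193 to 10000 without 1 library. For these differences the cause was not tested, beyond the fewer genes that limma could use.

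With knockdown in SW480, 1 of the 10 genes and 229 genes were called. No filter gave 0 and 41, the SW480 libraries alone 0 and 29, limma 0 and 28, a log2 fold change of at least 1 gave 0 and 4, the study's limits 2 and 1237, and leaving out 1 library 0 to 2 and 16 to 2179, the highest without SW480 shNAT10 replicate 2. NM transcripts only called 1 of the 10, EIF2AK2 in place of DICER1, and 22 genes, and the length correction 410. In DLD-1, 0 of the 10 and 2 genes were called, against 15 genes by DESeq2, 1 with no filter, 38 with the DLD-1 libraries alone, 1 by limma, 40 with the length correction, 1 with a log2 fold change of at least 1, 1 of the 10 and 365 genes by the study's limits, and 0 of the 10 and 1 to 5 genes without 1 library. For the difference of the knockdown effects, 0 of the 10 and 1 gene were called, against 20 genes by DESeq2, 0 with NM transcripts only, 0 by limma, 9 with the length correction, 4 of the 10 and 1070 genes by the study's limits, and 0 to 2 of the 10 and 0 to 370 genes without 1 library. The cause was not tested.

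Replicate numbers are shared by the groups, and the labels do not say what a number shares. Correlations of same-numbered deviations were -0.00535 to 0.128, which does not settle whether the numbers pair the samples. With a replicate block, 10 and 9 of the 10 genes and 10547 and 10673 genes were called between the lines. With knockdown the block gave 3 of the 10 (MAVS, ADAR and DICER1) and 1654 genes for SW480, 0 and 65 for DLD-1, and then 2 (ADAR and DICER1) and 209 for the difference.

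Values that changed sign were all uncalled there. With NM transcripts only, DROSHA between the lines under shControl was 0.83 and its difference of knockdown effects -1.57, and in DLD-1 EIF2AK2 was -0.10 and DICER1 0.029. With the length correction EIF2AK2 was 0.0045 in SW480, -0.0040 in DLD-1 and 0.0085 for the difference, and DROSHA was 0.028 in SW480. Upper-quartile scaling gave EIF2AK2 -0.0023 in DLD-1, and the block gave DROSHA -0.00083 for the difference. Leaving out 1 library spanned 0 for DICER1 under shNAT10 between the lines (-0.29 to 0.025), in SW480 for DHX58 (-0.23 to 0.084) and DROSHA (-0.093 to 0.062), in DLD-1 for MAVS (-0.021 to 0.078), EIF2AK2 (-0.019 to 0.026), DICER1 (-0.15 to 0.10), DROSHA (-0.048 to 0.020) and AGO2 (-0.061 to 0.14), and for DROSHA in the difference (-0.079 to 0.076). DHX58 in SW480 rests on few counts.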
